A study of Sus scrofa with 6 samples.

Results

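The natriuretic peptide genes NPPA, NPPB and NPPC were examined in left atria of 6 male Lanyu miniature pigs aged 18 months. Every probe set whose only annotated symbol was one of these names was taken. This gave 3 of the 23999 probe sets left once those named as AFFX controls were taken out. Each of these 3 genes had 1, among 6765 genes with a probe set of a single symbol. MRV pigs carried mitral regurgitation, a leak of the valve that sends blood back into the left atrium, and were given 3.43 mg/kg/day of valsartan, a drug that blocks angiotensin II at its type I receptor, starting 1 week ahead of the operation. MR pigs carried the same lesion, a hole of 2.8 mm made in the posterior leaflet of the mitral valve, with no drug, and both lesioned groups were killed 12 months after surgery. NC pigs were age-matched normal controls for which no operation is recorded, so the lesion and the operation cannot be told apart against NC. Each group had n = 2 pigs, and each pig had 1 array.

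Natriuretic peptides are hormones made from larger precursors and act by raising cyclic GMP in their target cells. Atrial muscle cells store atrial natriuretic peptide, the product of NPPA, in secretory granules. B-type natriuretic peptide, the product of NPPB, is made by stretched or overloaded heart muscle. Both bind the receptor encoded by NPR1, and they promote salt and water loss and widen blood vessels. C-type natriuretic peptide, the product of NPPC, comes largely from endothelium and acts through the receptor encoded by NPR2.

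The values are intensities on a linear scale, 1 per probe set and array, as deposited, with array medians from 90.2 to 93.4. The atrial myosin light chain gene MYL4 read from 21034 to 21842 on the 6 arrays, as a check that atrial muscle was present. Near the top of the measured range, where probe sets differed little, MYL4 cannot show whether other tissue was mixed in. The other measured atrial markers varied more. SLN read 8949 and 8530 in MRV, 5369 and 9876.5 in MR, and 8660 and 10033 in NC, lowest on MR1. NR2F2 read 805 and 671 in MRV, 697 and 612 in MR, and 585 and 568 in NC. STARD10 read 59.8 and 52.2 in MRV, 78.2 and 60.8 in MR, and 90.1 and 59.3 in NC. The 3 leukocyte markers with a probe set were all below the filter on dim probe sets, a mean intensity of 61.4. Degraded RNA raises the ratio of 3' to 5' actin control signal. This ratio stood at 2.30 and 1.87 in MRV, 1.44 and 1.70 in MR, and 1.61 and 1.91 in NC. NC overlapped with MR and with MRV, but both MRV arrays lay above both MR arrays. In MRV against MR the ratio therefore differed along with the drug. The same ratio for GAPDH was 1.53 and 1.55 in MRV, 1.53 and 1.57 in MR, and 1.56 and 1.59 in NC. In whole tissue, fewer cells of a type and less RNA per cell cannot be told apart.

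NPPB was the natriuretic peptide gene whose intensity differed by nearly a factor of 2 between groups. Its probe set read 4076 and 4644 in MRV, 8081 and 8253 in MR, and 4510 and 4095 in NC. Both MR arrays lay above all 4 other arrays, and the MRV and NC arrays overlapped. Of the 14400 probe sets tested, 8.03% had both MR arrays above the MRV and the NC arrays. The mean was 4360 ± 402 in MRV, 8167 ± 122 in MR and 4302 ± 293 in NC (SD, n = 2 each).

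**Figure D1:**
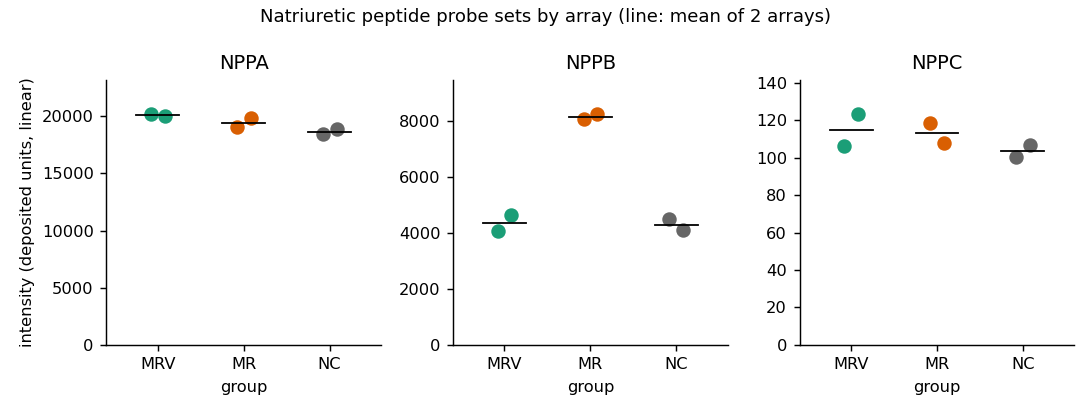
Deposited intensity of NPPA, NPPB and NPPC (linear axes from 0, one scale per gene) on each array of MRV, MR and NC, with points for arrays and a line at the mean of the 2 arrays. NPPB sat at 8081 and 8253 in MR and between 4076 and 4644 elsewhere, while NPPA and NPPC each stayed within a narrow range.

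The comparison of MR with NC asked what regurgitation changes in atrial RNA. For NPPB the MR mean was 1.90 times the NC mean, and the ratios of single MR to single NC arrays ran from 1.79 to 2.02. The log2 difference, taken on log2(intensity + 16), was 0.92 (SE 0.12, unadjusted 95% interval 0.63 to 1.215). It missed the threshold of 0.05 once adjusted over all 14400 probe sets (limma adjusted p = 0.640). The unadjusted limma p of 0.000275 was the third smallest of this comparison. The gap between the groups exceeded that within them, since the NC arrays differed by 10.1% and the MR arrays by 2.13%.

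Setting MRV against MR addresses what the drug changes in lesioned atria. The NPPB mean in MRV was 0.534 times that in MR, with ratios of single arrays from 0.494 to 0.575. The log2 difference was -0.91 (SE 0.12, unadjusted 95% interval -1.197 to -0.61), again short of the threshold (limma adjusted p = 0.317). This comparison shares the MR arrays with the one before, so the opposite signs are not independent of each other.

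For MRV against NC, which share no array, the NPPB means had a ratio of 1.01 and single arrays gave ratios from 0.904 to 1.13. The log2 difference was 0.018 (SE 0.12, limma adjusted p = 0.992). Its unadjusted 95% interval ran from -0.27 to 0.31, equal to a fold of 0.827 to 1.24. With 2 pigs a group, a difference inside these bounds is not excluded. The bounds are not a limit of detection. With the same SE, the NPPB differences of 0.92 in MR minus NC and -0.91 in MRV minus MR also missed the adjusted threshold.

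Of the 3 genes, 0 passed the threshold in any comparison, while 1, NPPB, was under 0.05 by its unadjusted limma p in MR minus NC and in MRV minus MR. Over all probe sets, 0.00694% passed in MR minus NC and 0% in both MRV comparisons. An unadjusted p under 0.05 was found for 4.02% of probe sets in MR minus NC, 7.28% in MRV minus MR and 5.29% in MRV minus NC. The central 95% of all log2 differences lay between -0.44 and 0.41 in MR minus NC and between -0.56 and 0.53 in MRV minus MR, and NPPB was outside both ranges. In size, 90 probe sets differed at least as much as NPPB in MR minus NC, itself included, and 216 did in MRV minus MR.

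**Figure D2:**
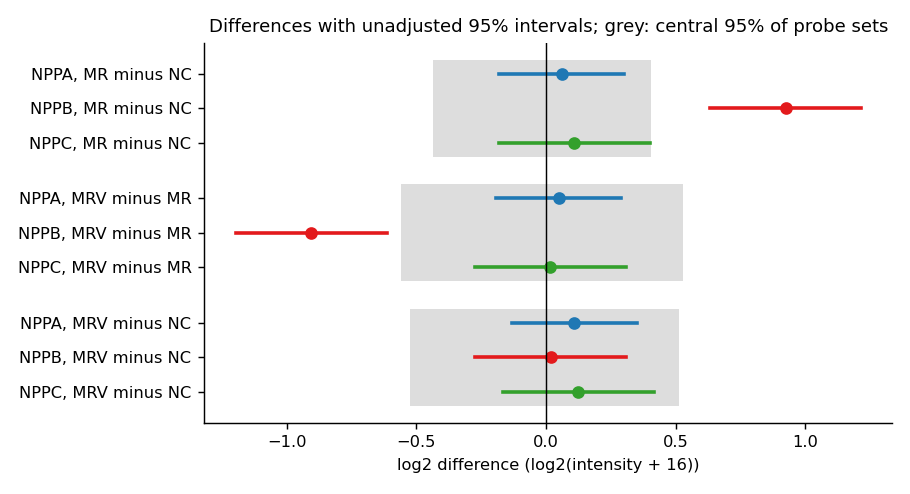
Log2 differences (points) with unadjusted 95% intervals (lines) for NPPA, NPPB and NPPC in the 3 comparisons; the grey band holds the central 95% of the 14400 probe sets tested. The interval of NPPB runs from 0.63 to 1.215 in MR minus NC and from -1.197 to -0.61 in MRV minus MR, and all other intervals cross 0.

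NPPB was read beside markers of ventricular muscle and of RNA quality. MYL2, the ventricular regulatory myosin light chain gene, read 152 and 954 in MRV, 10693 and 2318 in MR, and 203 and 325 in NC. Of the 5 ventricular markers, 3 had a probe set and none was listed at 0. Their summed intensity ranged from 8702 to 9369 in MRV, from 12734 to 21364 in MR and from 8874 to 10454 in NC. The other measured ventricular markers were MYL3, at 8476 and 8316 in MRV, 10583 and 10329 in MR, and 8584 and 10061 in NC, and HEY2, at 74.8 and 98.2 in MRV, 88.5 and 86.4 in MR, and 87.0 and 67.3 in NC. MYL2 gave most of the difference in the sum. The MR array with the larger MYL2 value, MR1, had the smaller NPPB value. MR2 also lay above every MRV and NC array for MYL2, so leaving out MR1 does not separate MYL2 from NPPB. Without MR1 the NPPB log2 differences were 0.94 for MR minus NC and -0.92 for MRV minus MR. With the actin ratio as a covariate, chosen after seeing the data, they were 0.86 and -0.74 (limma adjusted p = 0.999 and 1). Of the 7 Schwann cell and neuron markers, 3 had a probe set, and their sum ranged from 1085 to 1784 in MRV, from 2673 to 2963 in MR and from 1713 to 2933 in NC. The largest of them was UCHL1, at 633 and 1186 in MRV, 2277 and 1998 in MR, and 1122 and 2384 in NC. UCHL1 is also counted in a list of load-induced muscle genes given further on. The 3 measured smooth muscle markers summed to 3210 to 3608 in MRV, 3766 to 4168 in MR and 3916 to 4983 in NC. The part of these cell types in the NPPB differences was not tested.

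NPPA had one of the brightest probe sets on the arrays and differed little between groups. It read 20170 and 20039 in MRV, 19049 and 19833 in MR, and 18414 and 18864 in NC. No 2 groups overlapped, with MRV above MR and MR above NC, but the highest array was only 1.10 times the lowest. This order without overlap was shared by 0.819% of the probe sets tested. The means were 20104 ± 92.4 in MRV, 19441 ± 554 in MR and 18639 ± 318 in NC (SD, n = 2 each).

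The NPPA log2 difference was 0.060 in MR minus NC (SE 0.098, unadjusted 95% interval -0.18 to 0.30). It was 0.049 in MRV minus MR (interval -0.19 to 0.29) and 0.11 in MRV minus NC (interval -0.13 to 0.35). The limma adjusted p-values were 0.999955, 0.932 and 0.920. Each of the 3 intervals included 0, although the arrays did not overlap. With a variance prior that follows the mean level, the SE was 0.041 and the unadjusted limma p of MRV minus NC was 0.0391 (limma adjusted p = 0.899), against an unadjusted 0.308 with the common prior.

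The NPPA signal lay close to the top of the measured range, where other probe sets differed little between groups as well. Between 10 and 12 probe sets were brighter on each array, and the highest values on the arrays ran from 25780 to 27167. Of the probe sets tested, 21 had a mean of at least 15000, a limit chosen after seeing the data. Their log2 differences ran from -0.051 to 0.098 in MR minus NC, from -0.079 to 0.085 in MRV minus MR, and from -0.063 to 0.11 in MRV minus NC, where the highest was that of NPPA itself. The median size of a difference among them was 0.021 in MR minus NC, 0.036 in MRV minus MR and 0.034 in MRV minus NC, against 0.093, 0.12 and 0.11 over all probe sets. Whether the array response flattens at this level was not tested. After quantile normalization the MRV minus MR difference of NPPA was -0.017, and 4 of the 6 arrays had the same value because NPPA held the same rank there.

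**Figure D3:**
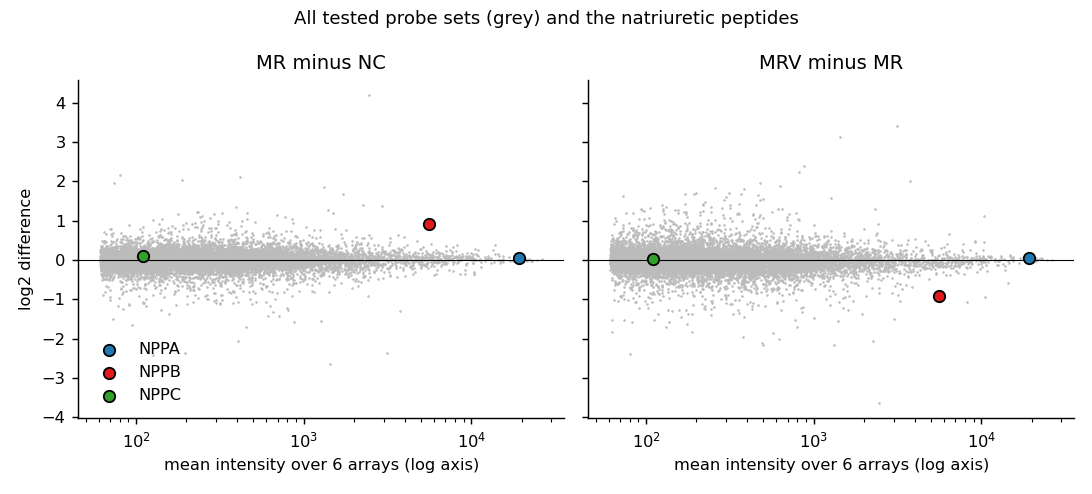
Log2 difference of each tested probe set (grey) against its mean intensity over the 6 arrays (log axis) for MR minus NC and MRV minus MR, with NPPA, NPPB and NPPC in colour. The cloud narrows with brightness: NPPA lies at the bright end with differences of 0.060 and 0.049, and NPPB lies at the edge of the cloud for its level with 0.92 and -0.91.

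NPPC ranked near the middle of the probe sets, somewhat above the array medians of 90.2 to 93.4. Its intensity was 106 and 123 in MRV, 119 and 108 in MR, and 101 and 107 in NC. Whether a signal at this level stands above background was not tested. The MRV arrays overlapped with both other groups, and both MR arrays were above both NC arrays, the nearest pair by a ratio of 1.01. The means were 115 ± 11.9 in MRV, 113 ± 7.71 in MR and 104 ± 4.45 in NC (SD, n = 2 each).

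The log2 difference of NPPC was 0.11 in MR minus NC (SE 0.12, unadjusted 95% interval -0.18 to 0.40). It was 0.016 in MRV minus MR (interval -0.28 to 0.31) and 0.12 in MRV minus NC (interval -0.17 to 0.42). The limma adjusted p-values were 0.999955, 0.983 and 0.924. The percentile of its mean intensity among all probe sets was 54.7, against 99.1 for NPPB and 99.95 for NPPA. These percentiles rank each probe set among those of the array and do not compare amounts of the 3 RNAs.

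All 3 genes had both MR arrays above both NC arrays, where 14.3% of probe sets did. In MRV against MR, NPPA was above and NPPB below without overlap, where 18.8% of probe sets were above and 23.6% below. In MRV against NC, NPPA alone of the 3 did not overlap and was above, as were 15% of probe sets. The sizes differed far more than these counts show, since the spans over the 6 arrays were 0.13 for NPPA, 1.01 for NPPB and 0.26 for NPPC on the log2 scale.

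In RefSeq's table of genes for the pig assembly Sscrofa11.1, NPPA and NPPB are neighbours with no protein-coding gene between them. Of the nearest protein-coding genes, 4 on each side of the pair, 1 was measured by a probe set with a single symbol. This was PLOD1, which encodes a lysyl hydroxylase of collagen, at 298 and 275 in MRV, 328 and 294 in MR, and 418 and 288 in NC. Its log2 difference was -0.15 in MR minus NC and -0.11 in MRV minus MR (limma adjusted p = 0.999955 and 0.916). Of these 3 measured neighbours, NPPB alone had both MR arrays above all others.

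The genes nearest to NPPB in profile were found by the root mean square difference between log2 values over the 6 arrays, after each gene's own mean was taken off. Of 5407 other genes, the closest was C1H9orf16, with a difference of 0.089, where the median gene was at 0.44. It read 208 and 223 in MRV, 447 and 436 in MR, and 266 and 227 in NC. INPP5F, which encodes a phosphoinositide phosphatase, was next at 0.14, with 468 and 470 in MRV, 884 and 821 in MR, and 526 and 540 in NC.

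DDR1, a collagen receptor kinase gene, followed at 0.14, then SLCO3A1, an organic anion transporter gene, and SAMD4A, an RNA-binding protein gene, each at 0.17. DDR1 read 502 and 574 in MRV, 978 and 856 in MR, and 641 and 541 in NC. Being chosen for likeness to NPPB, all 5 had both MR arrays above all others, as 8.03% of probe sets did. Their log2 differences ran from 0.62 to 0.81 in MR minus NC and from -0.98 to -0.57 in MRV minus MR, all less than NPPB in size for MR minus NC. None passed the threshold, the smallest limma adjusted p being 0.640 in MR minus NC and 0.317 in MRV minus MR. NPPA and NPPC spanned less than 0.5 on the log2 scale and had no such search.

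**Figure D4:**
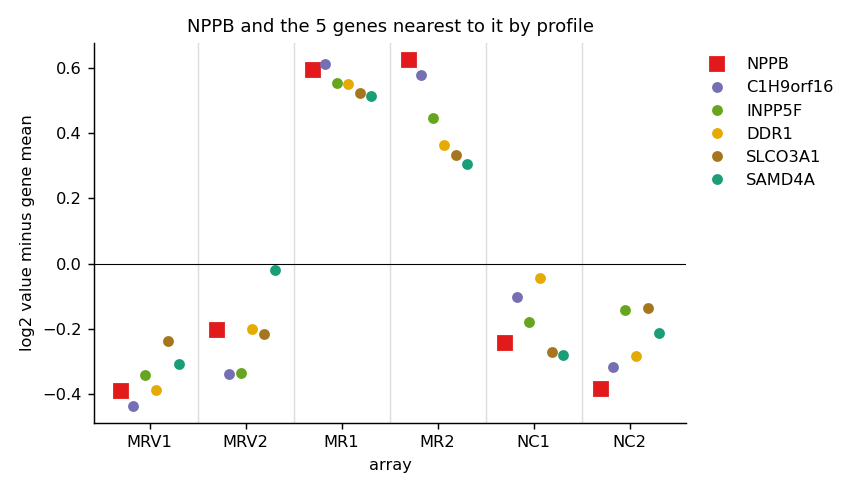
Log2 value minus the gene's own mean over 6 arrays, for NPPB (squares) and the 5 genes with the smallest root mean square difference from it (circles). On MR1 and MR2 NPPB stood at 0.59 and 0.625, and on the other 4 arrays between -0.39 and -0.20.

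The receptors and the enzymes that degrade these peptides were covered in part. Of 8 genes in this list, 4 had a probe set with a single symbol and all 4 passed the filter. NPR1 and the clearance receptor gene NPR3 were not among them and were not analysed here. NPR2, the receptor of C-type natriuretic peptide, read 371 and 334 in MRV, 371 and 407 in MR, and 382 and 376 in NC. Its log2 difference was 0.035 in MR minus NC and -0.14 in MRV minus MR, and a second probe set of the gene read from 86.1 to 110 on all arrays.

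DPP4, a peptidase that trims B-type natriuretic peptide in human plasma, read 526 and 432 in MRV, 236 and 327 in MR, and 403 and 490 in NC. Both MR arrays lay below all others, opposite to NPPB. Its log2 difference was -0.65 (SE 0.20) in MR minus NC and 0.74 in MRV minus MR (limma adjusted p = 0.999955 and 0.569). IDE, the insulin-degrading enzyme, which also cleaves natriuretic peptides, read 1121 and 1219 in MRV, 935 and 1390 in MR, and 468 and 1650 in NC. FAP, a peptidase of activated fibroblasts, read 254 and 156 in MRV, 247 and 231 in MR, and 592 and 218 in NC. For IDE and FAP the NC arrays were far apart and overlapped with MR and with MRV. The list had 0 genes called in either direction, with a median log2 difference of -0.27 in MR minus NC and -0.051 in MRV minus MR, against 0.0076 and -0.031 over all 5408 genes. Without MR1 these medians were -0.16 and -0.20, and without MR2 -0.27 and 0.12. Without MRV2 the MRV minus MR median was 0.031.

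Of 16 genes for precursor processing and secretory granules, 10 had a probe set and 6 passed the filter, with 0 called in any comparison. CORIN and FURIN, whose proteases cut the precursors, were not among the 10 and were not analysed here. RAB3A, a small GTPase of secretory vesicles, read 387 and 408 in MRV, 510 and 510 in MR, and 511 and 429 in NC, with MRV below both other groups (MRV minus MR -0.35, limma adjusted p = 0.654). The granule protein gene CHGA read 76.4 and 78.9 in MRV, 70.2 and 57.5 in MR, and 72.0 and 63.3 in NC. SCG2, a secretogranin gene, stood at 187 in NC1, while the 5 remaining arrays lay between 39.1 and 54.4. The list's median was 0.049 in MR minus NC, -0.037 in MRV minus MR and 0.041 in MRV minus NC. With single arrays left out it ran from 0.012 to 0.052, from -0.066 to 0.0037 and from -0.0069 to 0.087 in the same order. Without the filter on dim probe sets it was -0.0135, -0.145 and -0.0877, so its sign turned in MR minus NC and in MRV minus NC.

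Picked out after their values were seen, PAM and VAMP2 had the order of NPPA, with MRV above MR and MR above NC without overlap. This order was shared by 118 of the 14400 probe sets tested, or 0.819%. PAM encodes an amidating enzyme that is abundant in the membranes of atrial granules in rodents. It read 13604 and 13637 in MRV, 13121 and 12987 in MR, and 12573 and 12774 in NC, a log2 difference of 0.10 in MRV minus NC (SE 0.096, limma adjusted p = 0.924). VAMP2, a vesicle fusion protein gene, read 587 and 608 in MRV, 552 and 571 in MR, and 550 and 530 in NC, a difference of 0.14 (limma adjusted p = 0.906). After quantile normalization this order was lost for NPPA and PAM and kept for VAMP2, with MRV minus NC differences of 0.017, 0.10 and 0.19 in turn. The order was then held by 152 probe sets.

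Of 21 genes of cyclic GMP signalling, 7 had a probe set and 5 passed the filter, with 0 called in any comparison. GUCY1B3, also named GUCY1B1, encodes a subunit of soluble guanylate cyclase, the nitric oxide sensor that makes cyclic GMP. It read 341 and 262 in MRV, 540 and 446 in MR, and 374 and 258 in NC, so MR lay above both other groups as for NPPB. Its log2 difference was 0.63 (SE 0.22) in MR minus NC and -0.69 in MRV minus MR (limma adjusted p = 0.999955 and 0.626). A second probe set read 118 and 128 in MRV, 180 and 149 in MR, and 143 and 105 in NC.

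PDE3A, a cyclic nucleotide phosphodiesterase gene, read 327 and 447 in MRV, 216 and 251 in MR, and 205 and 306 in NC. Both MRV arrays lay above all others, with a log2 difference of 0.68 in MRV minus MR (SE 0.23, limma adjusted p = 0.648). A second PDE3A probe set, below the filter, read from 40.2 to 57.3 and its groups overlapped. RGS2, which damps G protein signals and is a target of the cyclic GMP kinase, read 242 and 345 in MRV, 173 and 395 in MR, and 315 and 635 in NC, and all its groups overlapped. The list's median was -0.099 in MR minus NC and -0.030 in MRV minus MR. Without NC1 the first was 0.205, and without MR1 and MR2 in turn the second was -0.41 and 0.15.

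Of 24 regulators of natriuretic peptide promoters, 11 had a probe set and 10 passed the filter, with 0 called. GATA4, a cardiac transcription factor gene, read 616 and 585 in MRV, 697 and 637 in MR, and 612 and 572 in NC. Both MR arrays lay above all others, with a log2 difference of 0.17 in MR minus NC (SE 0.11, limma adjusted p = 0.999955). A second GATA4 probe set read 70.0 and 71.8 in MRV, 85.1 and 62.1 in MR, and 62.8 and 59.1 in NC. There MR overlapped with both other groups. ANKRD1, a stretch-responsive nuclear cofactor gene, read 13884 and 13841 in MRV, 15802 and 15241 in MR, and 9863 and 14562 in NC. Again MR lay above all others. A second ANKRD1 probe set read 151 and 132.5 in MRV, 928 and 516 in MR, and 1056 and 221 in NC. There MR overlapped with NC, and both MRV arrays lay below all others. ANKRD1 is also counted in the list of load-induced muscle genes given further on. The zinc finger factor gene YY1 read 1796 and 1659 in MRV, 1396 and 1628 in MR, and 1501 and 1702 in NC. The list's median was -0.028 in MR minus NC, -0.0022 in MRV minus MR and 0.018 in MRV minus NC. Its sign turned with single arrays: in MR minus NC it was 0.019 without NC1, 0.072 without NC2 and 0.0505 without MR1, and in MRV minus MR -0.090 without MR1, 0.061 without MR2, 0.047 without MRV1 and -0.078 without MRV2. In MRV minus NC it ran from -0.0071 without NC1 to 0.104 without NC2.

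Of 15 load-induced muscle genes that are often read beside natriuretic peptides, 12 had a probe set and all 12 were tested, with 0 called in any comparison. Their median log2 difference was 0.26 in MR minus NC and -0.42 in MRV minus MR, against 0.0076 and -0.031 over all genes. In MR minus NC 9 of the 12 were positive, where 52.6% of all genes were, and in MRV minus MR 11 of the 12 were negative, where 57.6% of all genes were. NEBL, a Z-disc protein gene, differed by 0.88 in MR minus NC (limma adjusted p = 0.640) and by -0.42 in MRV minus MR, and it read 355 and 331 in MRV, 450 and 481 in MR, and 229 and 264 in NC. Unlike NPPB, its MRV arrays lay above its NC arrays.

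FHL1, a LIM protein gene, differed by 0.28 in MR minus NC and by -0.94 in MRV minus MR (limma adjusted p = 0.999955 and 0.317), with MRV below NC. XIRP1, an actin-binding protein gene, differed by -0.31 and -0.42, with MRV below MR and MR below NC. MYH7 and ACTC1, heavy chain and actin genes of the contractile apparatus, differed by at most 0.048 in size in these comparisons. Both read above 15000 on every array, near the top of the measured range like NPPA. Probe sets with a mean of at least 15000 had median sizes of only 0.021 in MR minus NC and 0.036 in MRV minus MR. The small differences of MYH7 and ACTC1 therefore cannot show whether their RNAs were unchanged. The list was written with earlier results of these pigs known, so its direction is not independent evidence. Without NC1 its median in MR minus NC was 0.073, without NC2 it was 0.415, and with each gene taken as the mean of its probe sets its median in MRV minus MR was -0.67.

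**Figure D5:**
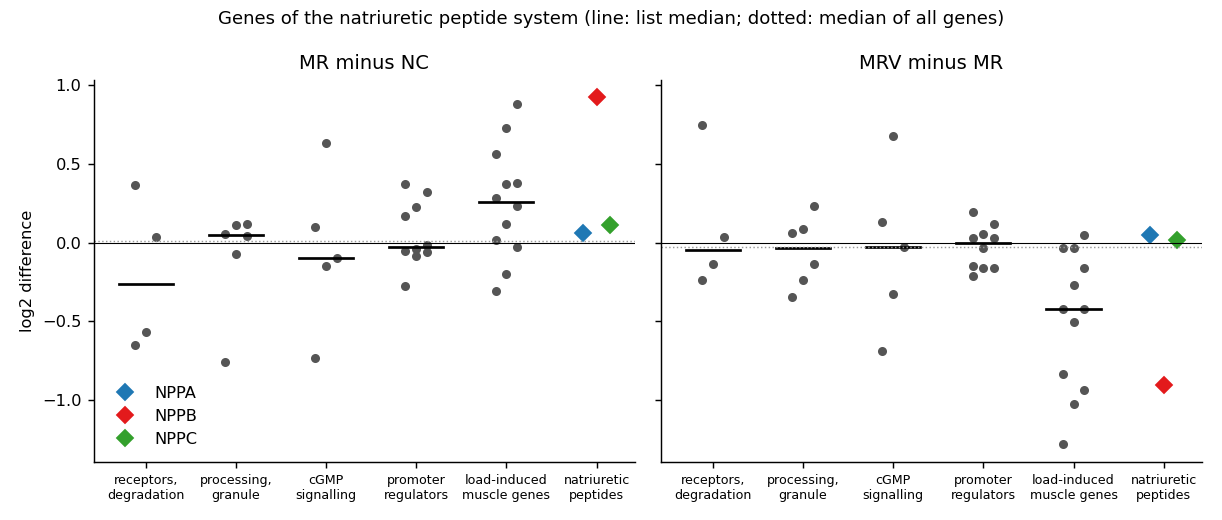
Log2 differences of the tested genes (points) in 5 lists around the natriuretic peptides, for MR minus NC and MRV minus MR, with the list median as a line and NPPA, NPPB and NPPC as diamonds. The load-induced muscle genes have medians of 0.26 and -0.42, and NPPB lies beyond all of them in MR minus NC at 0.92. In MRV minus MR, UCHL1 at -1.28, RCAN1 at -1.03 and FHL1 at -0.94 lie beyond NPPB at -0.91.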

How the data were processed

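Total RNA from 6 left atria was measured on an Affymetrix porcine array. The deposited values are linear intensities, already brought to similar array medians by the authors. Per the submitters' processing notes, MAS5 and RMA were used. Their versions, and the one that made these values, are not given in the sources used here. Control probe sets with names starting in AFFX were left out, while reporter probe sets with names starting in RPTR were kept. Symbols came from the platform annotation, with 1 symbol for 10069 of the 23999 probe sets left.

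Probe sets with a mean below the 40th percentile (61.4) were not tested, which left 14400. Values were tested as log2(intensity + 16) in 1 model over the 6 arrays with a mean per group (limma 3.58.1, lmFit and eBayes, under R 4.3.3; 3 residual and 2.78 prior degrees of freedom). Benjamini-Hochberg adjustment was made within each comparison. The fit was tested on simulated data. An exact permutation test of 2 against 2 cannot go below p = 0.333 and was not used. The number of arrays limits the precision.

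A gene was represented by its brightest probe set. All probe sets of the 3 peptides were named, all measured receptor-list genes, 3 genes of each other list by smallest p, and the 5 nearest profiles to NPPB. PAM, VAMP2, MYH7, ACTC1, RCAN1, UCHL1, PLOD1 and the cell type markers MYL2, MYL3, MYL4, SLN, NR2F2, STARD10 and HEY2 fall outside that rule. The members and lists were chosen with earlier results of these data known. Alternatives changed the pseudocount, filter, normalization, arrays, prior, replicate block and an actin covariate.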

Additional observations from a re-analysis of the deposited data

How the results depend on the processing

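Under 15 alternatives each, NPPB kept its direction in MR minus NC, with log2 differences from 0.854 to 0.993 (limma adjusted p from 0.26 to 1), and in MRV minus MR, with -1 to -0.737 (limma adjusted p from 0.232 to 1). None of the 3 genes passed the threshold in any comparison under any alternative. Differences near 0 changed sign. In MRV minus MR, NPPA was -0.0169 after quantile normalization and NPPC -0.00591 after centring each array on its median. With 1 array left out at a time, NPPC ranged from -0.0773 to 0.108 in MRV minus MR and NPPB from -0.0761 to 0.112 in MRV minus NC, and the sign was negative for NPPC without MR2 (-0.0454) or MRV2 and for NPPB without NC2 (-0.0515) or MRV2. The cause was not tested.

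The 1 probe set called in MR minus NC became 0 with a pseudocount of 1, no filter, quantile normalization, only the 4 arrays compared, the replicate block, a trended prior, the actin covariate, and without any single array (range 0 to 0). The titles share replicate numbers, but nothing says that these pair the pigs. Deviations of same-numbered arrays correlated at 0.34 between MR and NC, 0.019 between MRV and MR and 0.20 between MRV and NC over 14400 probe sets. With the replicate block, 2 probe sets were called in MRV minus MR, where 0 were called without it, and NPPB stood at 0.924 (limma adjusted p = 0.572) and -0.906 (limma adjusted p = 0.232). No gene of the 5 lists was called under any alternative, and 26 of 240 list medians moved by more than the spread between replicates. Dim probe sets such as NPPC have changes understated by the pseudocount of 16.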
